A study of Saccharomyces cerevisiae with 30 samples.

Results

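Transcript levels of 4 histone genes of budding yeast were followed after UV irradiation: the H2B genes *HTB1* (YDR224C) and *HTB2* (YBL002W), the H2A variant gene *HTZ1* (YOL012C) and the linker histone gene *HHO1* (YPL127C). They were chosen by name, as the histone genes whose probe sets carry 1 of these 4 gene names, and are 4 of the 5656 genes with a singly named probe set. Each gene was read by 1 probe set. All 4 passed the filter on dim genes and are among the 4242 genes tested.

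The 30 arrays (Affymetrix Yeast S98, 1 RNA sample each) came from 4 strains, each untreated, 15 min and 60 min after UV at 100 J/m2 (254 nm). All strains were BY4742, a haploid of the alpha mating type, with the chromosomal *RAD7* gene deleted and a *HIS3* plasmid (pRS313) that supplies *RAD7*. The psocs Δrad23 strain carried the plasmid with *RAD7* changed at 2 positions of its SOCS box, which blocks the ubiquitination of Rad4 after UV, and had *RAD23* replaced by *URA3*. The pRAD7 Δrad23 strain had the same deletion with wild-type *RAD7* on the plasmid, the psocs strain carried the mutated plasmid with *RAD23* intact, and the pRAD7 strain, with wild-type *RAD7* and intact *RAD23*, served as the control. Cells were grown at 30°C to late log phase in medium without histidine. Each Δrad23 group had 2 arrays and each group with *RAD23* intact had 3. The replicates are labelled biological without any mention of separate cultures, and the p-values therefore reflect the scatter among these samples alone, which may be technical.

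Nucleosomes wrap DNA around an octamer of the histones H2A, H2B, H3 and H4. In budding yeast each core histone is encoded by a pair of genes, and the transcripts of the core histone genes accumulate in S phase, when new DNA has to be packaged, and are kept low when DNA synthesis stops. *HTB1* and *HTB2* encode almost identical H2B proteins, and each lies beside an H2A gene from which it is divergently transcribed: *HTA1* next to *HTB1* and *HTA2* next to *HTB2*. *HTZ1* encodes H2A.Z, which the SWR1 complex places in nucleosomes that flank promoters throughout the cell cycle, and *HHO1* encodes the linker histone H1 of yeast, which binds between nucleosomes. *HTZ1* lies between *HRD1* and *PLB3*, and *HHO1* between *TBF1* and *NAN1*, so neither has a histone gene as its neighbour.

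The labels were checked on the altered genes. *RAD23* had a deposited signal of 1.26 to 4.40 in the 12 arrays of the Δrad23 strains, against 605 to 1570 in the 18 arrays with *RAD23* intact, and *URA3* had 241 to 614 in the Δrad23 strains, against 0.762 to 9.78. *RAD7* read 17.4 to 54.2 in the 15 arrays with the psocs plasmid, against 242 to 1170 with the pRAD7 plasmid. The psocs strains thus differed from the pRAD7 strains in *RAD7* signal as well as in the SOCS box. Effects of the SOCS box change and of the lower *RAD7* signal cannot be told apart here. Of the markers of mating type and sporulation, 4 of 4 alpha genes, 1 of 7 **a** genes and 0 of 7 sporulation genes passed the filter on dim genes. Summed over the list, the alpha genes read 14690 to 30310 per array, the **a** genes 149.8 to 683.3 and the sporulation genes 202.7 to 312.7. Signals are given below after each array was centred on a common median. A change is a log2 difference between group means with its standard error, and a change is called where its adjusted p was under 0.05 (limma, Benjamini-Hochberg over the 4242 genes).

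After UV both H2B transcripts fell in all 4 strains, *HTB1* early and then levelling off, *HTB2* in steps at 15 and 60 min, with the one exception that the 15 min fall of *HTB2* in pRAD7 Δrad23 was not called. *HTZ1* was not called at 15 min, and at 60 min it was called lower in psocs and pRAD7. *HHO1* moved least, over a range of 0.45 on the log2 scale between its highest and lowest group means, against 1.36 for *HTB1*, 1.48 for *HTZ1* and 2.86 for *HTB2*. In RNA from whole cultures, a smaller share of cells with a transcript and less of it per cell cannot be told apart.

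**Figure D1:**
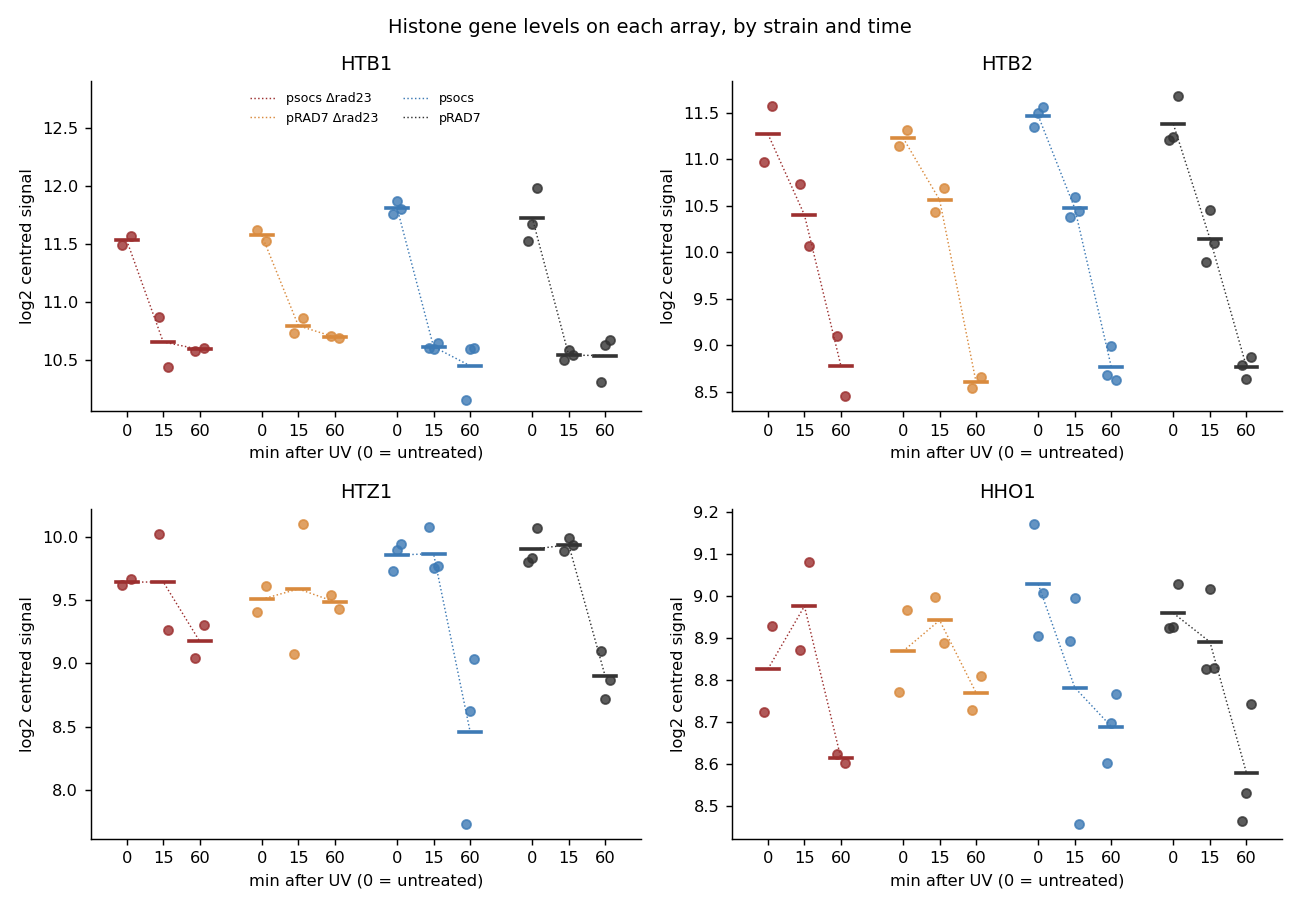
Centred log2 signal of each histone gene (vertical axis) on every array, by strain and minutes after UV (horizontal axis, 0 for untreated). Points are arrays, horizontal bars group means. HTB1 drops at 15 min and stays there, HTB2 drops at both times, HTZ1 is lower at 60 min, called in psocs and pRAD7, and HHO1 spans 0.45 between its highest and lowest group means. The vertical scales differ between genes.

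*HTB1* in psocs Δrad23 had signals of 2887 and 3036 untreated, 1878 and 1391 at 15 min, and 1529.6 and 1563 at 60 min. In pRAD7 Δrad23 *HTB1* had 3152 and 2947 untreated, 1705 and 1859 at 15 min, and 1677 and 1650.2 at 60 min. The untreated arrays of both Δrad23 strains were all above their irradiated ones. In psocs *HTB1* read 3469.8, 3740.0 and 3574 untreated, 1559, 1549 and 1605 at 15 min, and 1141, 1554 and 1557 at 60 min. In pRAD7 *HTB1* read 2951, 3262 and 4048 untreated, 1448, 1537 and 1499.9 at 15 min, and 1274, 1591 and 1634 at 60 min. Every untreated array of every strain was thus higher than every irradiated array of any strain. No share of all genes was computed for this pooled separation. The 2 lowest *HTB1* values were those of replicate 1 at 60 min in psocs and in pRAD7.

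The change of *HTB1* at 15 min was -0.87 ± 0.16 (adjusted p = 0.000874) in psocs Δrad23, -0.78 ± 0.16 (adjusted p = 0.00243) in pRAD7 Δrad23, -1.19 ± 0.13 (adjusted p = 6.48e-07) in psocs and -1.18 ± 0.13 (adjusted p = 6.97e-07) in pRAD7. These are falls of 1.83-fold, 1.71-fold, 2.29-fold and 2.27-fold. At 60 min the change from untreated was -0.94 ± 0.16, -0.87 ± 0.16, -1.36 ± 0.13 and -1.19 ± 0.13 in the same order of strains, with adjusted p-values of 9.02e-05 or below. Between 15 and 60 min *HTB1* changed by -0.06 ± 0.16, -0.10 ± 0.16, -0.16 ± 0.13 and -0.00 ± 0.13, and none of these 4 differences was called. The 95% interval of the last one, in pRAD7, ran from -0.28 to 0.27. Its sign depended on the scaling of the arrays: with quantile normalization it was 0.39 (adjusted p = 0.0421) and in the values as deposited 0.38 (adjusted p = 0.0276). The 15 min call of *HTB1* in psocs Δrad23 was lost without replicate 2 of its 15 min arrays (-0.66, adjusted p = 0.0604). With only the groups compared in the fit, the 15 min calls of *HTB1* were lost in psocs Δrad23 (adjusted p = 0.0912) and in pRAD7 Δrad23 (adjusted p = 0.129).

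*HTB2* fell further. In psocs Δrad23 it read 2009 and 3033 untreated, 1700.3 and 1074 at 15 min, and 549 and 351 at 60 min. In pRAD7 Δrad23 *HTB2* read 2266 and 2534 untreated, 1386 and 1649 at 15 min, and 372 and 406 at 60 min. In both strains the 3 times formed 3 steps with no overlap between them. In psocs *HTB2* read 2591, 2888 and 3019 untreated, 1330.3, 1542 and 1396 at 15 min, and 411, 510.2 and 396 at 60 min. In pRAD7 *HTB2* read 2367, 2416 and 3274 untreated, 949.9, 1399 and 1097 at 15 min, and 444, 398 and 472 at 60 min. The same 3 steps held across strains: all 10 untreated arrays lay above all 10 arrays at 15 min, and these above all 10 at 60 min. No share of all genes was computed for these steps, within a strain or across strains. Within a step, neighbouring strains in the order of means overlapped.

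The 15 min change of *HTB2* was -0.87 ± 0.24 (adjusted p = 0.0159) in psocs Δrad23, -0.66 ± 0.24 (adjusted p = 0.0625) in pRAD7 Δrad23, -0.99 ± 0.19 (adjusted p = 0.00043) in psocs and -1.23 ± 0.19 (adjusted p = 3.54e-05) in pRAD7. The value in pRAD7 Δrad23 missed the threshold although its arrays did not overlap, and it was called with quantile normalization (-0.86, adjusted p = 0.0138) and in the values as deposited (-0.84, adjusted p = 0.0140). The call in psocs Δrad23 rested on single arrays: the change was -0.57 (adjusted p = 0.235) without untreated replicate 2 and -0.54 (adjusted p = 0.355) without 15 min replicate 2. It was also lost with only the groups compared in the fit (adjusted p = 0.161).

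At 60 min *HTB2* was 5.62-fold lower than untreated in psocs Δrad23 (-2.49 ± 0.24, adjusted p = 2.74e-08), 6.16-fold lower in pRAD7 Δrad23 (-2.62 ± 0.24, adjusted p = 6.09e-09), 6.48-fold lower in psocs (-2.70 ± 0.19, adjusted p = 1.34e-10) and 6.08-fold lower in pRAD7 (-2.60 ± 0.19, adjusted p = 3.56e-10). Counted from the lowest change of all 4242 genes, *HTB2* stood at rank 55 in psocs Δrad23, 35 in pRAD7 Δrad23, 66 in psocs and 51 in pRAD7, while *HTB1* stood at rank 749, 788, 445 and 565. Between 15 and 60 min *HTB2* fell in every strain, with log2 changes of -1.62 ± 0.24, -1.96 ± 0.24, -1.70 ± 0.19 and -1.38 ± 0.19 in the same order, with adjusted p-values of 1.52e-05 or below. The H2B genes therefore had like changes at 15 min and unlike ones after it. The difference between 2 probe sets was not tested, and neither was cross-hybridisation between the probe sets of these near-identical genes.

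**Figure D2:**
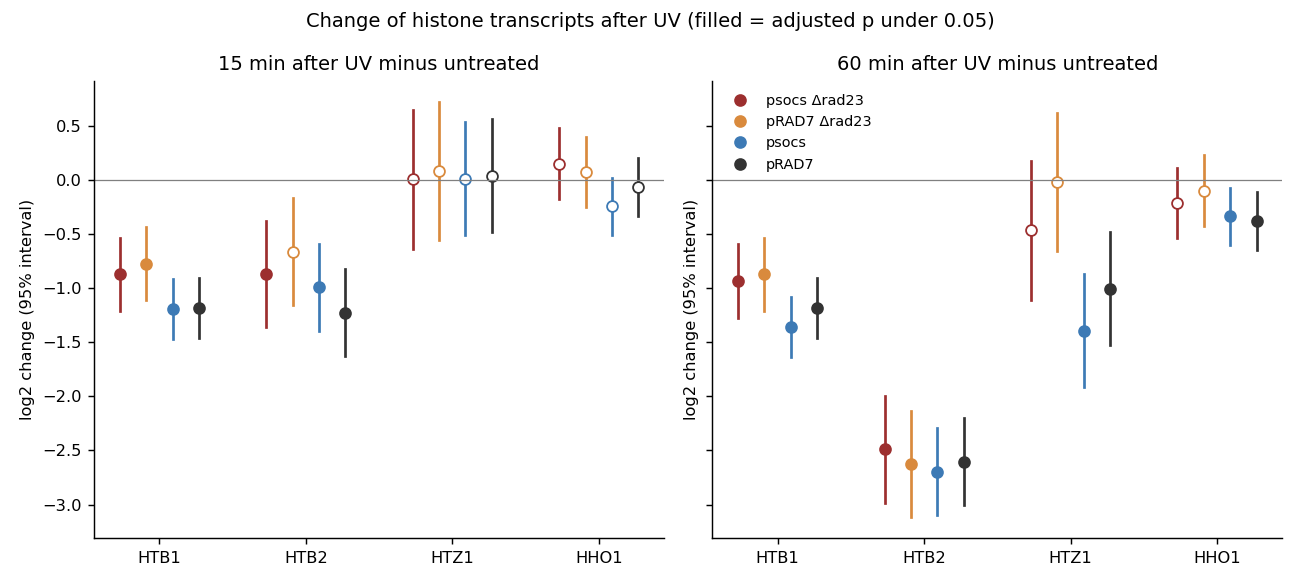
Log2 change of each histone gene at 15 min and at 60 min after UV relative to untreated cells of the same strain (points, with 95% intervals), by strain. Filled points are called at adjusted p under 0.05: 7 of 16 at 15 min, all HTB1 and HTB2, and 12 of 16 at 60 min, including HTZ1 and HHO1 in psocs and pRAD7.

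*HTZ1* had signals of 787 and 812 untreated, 1044 and 614 at 15 min, and 528 and 633 at 60 min in psocs Δrad23. In pRAD7 Δrad23 *HTZ1* had 679 and 781 untreated, 539 and 1102 at 15 min, and 747 and 690.0 at 60 min. The 2 arrays at 15 min stood on either side of the untreated ones in each Δrad23 strain. In psocs *HTZ1* read 848, 952 and 988 untreated, 1083, 864 and 873 at 15 min, and 212, 394 and 524 at 60 min. In pRAD7 *HTZ1* read 893, 914 and 1076 untreated, 948, 1018 and 979 at 15 min, and 549, 422 and 468 at 60 min. In both strains with *RAD23* intact, the 15 min arrays overlapped the untreated ones and every 60 min array lay below all 6 of the others, with replicate 1 of psocs lowest. In psocs Δrad23 both 60 min arrays also lay below both untreated ones, while in pRAD7 Δrad23 they overlapped.

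At 15 min *HTZ1* changed by 0.00 ± 0.31 in psocs Δrad23, 0.08 ± 0.31 in pRAD7 Δrad23, 0.01 ± 0.25 in psocs and 0.04 ± 0.25 in pRAD7. No value was called, and the 95% interval in pRAD7 reached from -0.49 to 0.56. At 60 min *HTZ1* was 2.63-fold lower than untreated in psocs (-1.40 ± 0.25, adjusted p = 4e-05) and 2.01-fold lower in pRAD7 (-1.01 ± 0.25, adjusted p = 0.00131). In the Δrad23 strains the 60 min change of *HTZ1* was -0.47 ± 0.31 (95% interval -1.11 to 0.17, adjusted p = 0.196) with psocs and -0.02 ± 0.31 (95% interval -0.66 to 0.62, adjusted p = 0.958) with pRAD7. The decline between 15 and 60 min was likewise called in psocs (-1.41 ± 0.25, adjusted p = 6.63e-05) and in pRAD7 (-1.04 ± 0.25, adjusted p = 0.00143), and not in psocs Δrad23 (-0.47 ± 0.31, adjusted p = 0.224) or pRAD7 Δrad23 (-0.10 ± 0.31, adjusted p = 0.811).

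The split of *HTZ1* at 15 min in the Δrad23 strains went with a split of the same arrays in stress genes. The mean log2 signal of 10 stress genes, among them *HSP12*, *CTT1* and *HSP26*, a list chosen after these values were seen, was 8.95 in replicate 1 of psocs Δrad23 and 8.91 in replicate 2 of pRAD7 Δrad23. It was 11.29 in replicate 2 of psocs Δrad23 and 11.15 in replicate 1 of pRAD7 Δrad23, against 10.62 to 11.29 in the 15 min arrays with *RAD23* intact. *HTZ1* read 1044 and 1102 in the pair with low stress genes, and 614 and 539 in the other pair. The H2B genes were also higher in the pair with low stress genes. *HTB1* read 1878 and 1859 there against 1391 and 1705, and *HTB2* 1700.3 and 1649 against 1074 and 1386. *HHO1* went the other way, with 468 and 473 against 542 and 511. Without the pair with low stress genes, the 15 min change of *HTZ1* was -0.38 in psocs Δrad23 and -0.43 in pRAD7 Δrad23, and without the other pair it was 0.39 and 0.60, with no call. Without the pair with high stress genes, *HTB1* (-0.66, adjusted p = 0.0611) and *HTB2* (-0.54, adjusted p = 0.340) lost their 15 min calls in psocs Δrad23. The part of this split in the results was not tested.

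*HHO1* stayed within a narrow band. In psocs Δrad23 it read 423 and 487 untreated, 468 and 542 at 15 min, and 394 and 389 at 60 min. In pRAD7 Δrad23 *HHO1* read 437 and 500.2 untreated, 511 and 473 at 15 min, and 424 and 449 at 60 min. In psocs Δrad23 both 60 min arrays lay below all 4 others, while in pRAD7 Δrad23 they lay below both 15 min arrays and overlapped the untreated ones. In psocs *HHO1* read 577, 479 and 515 untreated, 475, 510.2 and 352 at 15 min, and 389, 415 and 436 at 60 min. In pRAD7 *HHO1* read 485, 487 and 522 untreated, 454, 518 and 455 at 15 min, and 353, 369.7 and 428 at 60 min. In both of these strains each 60 min array was lower than each untreated array, and at 15 min the arrays overlapped the untreated ones.

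No 15 min change of *HHO1* was called. The values were 0.15 ± 0.16, 0.07 ± 0.16, -0.25 ± 0.13 and -0.07 ± 0.13 in psocs Δrad23, pRAD7 Δrad23, psocs and pRAD7, and the one in psocs was called with quantile normalization (-0.36, adjusted p = 0.0362) and in the values as deposited (-0.34, adjusted p = 0.0441). At 60 min *HHO1* was called lower in psocs (-0.34 ± 0.13, 1.26-fold, adjusted p = 0.0244) and in pRAD7 (-0.38 ± 0.13, 1.30-fold, adjusted p = 0.0125), and not in psocs Δrad23 (-0.21 ± 0.16, adjusted p = 0.251) or pRAD7 Δrad23 (-0.10 ± 0.16, adjusted p = 0.600). Both calls were lost in the values as deposited, with -0.14 (adjusted p = 0.347) in psocs and -0.11 (adjusted p = 0.463) in pRAD7. The psocs call was also lost without untreated replicate 1 (adjusted p = 0.109) or 60 min replicate 1 (adjusted p = 0.0794) and with only the groups compared (adjusted p = 0.0533), and the pRAD7 call without 60 min replicate 1 (adjusted p = 0.0575). Between 15 and 60 min *HHO1* changed by -0.36 ± 0.16 in psocs Δrad23 (adjusted p = 0.0651, and 0.0341 without 15 min replicate 3 of psocs), -0.17 ± 0.16 in pRAD7 Δrad23 (adjusted p = 0.387), -0.09 ± 0.13 in psocs (adjusted p = 0.558) and -0.31 ± 0.13 in pRAD7 (adjusted p = 0.0454). As deposited the last one was 0.074 (adjusted p = 0.633).

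Counted over genes and strains, 7 of the 16 histone changes at 15 min were called, all lower. Of all genes tested, 6.67% were called lower at 15 min in psocs Δrad23, 5.92% in pRAD7 Δrad23, 12.3% in psocs and 14.2% in pRAD7. Arrays that did not overlap, with UV lower, were found for *HTB1* and *HTB2* in every strain, 8 of 16, against 21.8%, 20.5%, 17.1% and 18.9% of all genes in the same order. At 60 min 12 of 16 were called, all lower, against 28.8%, 28.2%, 34.0% and 36.1% of all genes, and 14 of 16 were lower without overlap, against 37.9%, 37.5%, 35.0% and 39.9%. Being called lower at 60 min was thus common among all genes. Every share without overlap given here is for a pair of groups within a strain, and none was computed over more groups. By rank from the lowest of 4242 in pRAD7, *HTB2* stood at 91 at 15 min and at 51 at 60 min. In the same order of times *HTB1* stood at 103 and 565, *HHO1* at 1548 and 1602, and *HTZ1* at 1954 and 714. From 15 to 60 min 7 of 16 were called, all lower, against 24.3%, 24.0%, 32.1% and 33.3% of all genes, and 10 of 16 were lower without overlap, against 37.0%, 37.6%, 34.3% and 40.0%.

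These background shares moved with the scaling. Of the genes called at 15 min, 60.5%, 59.9%, 63.6% and 62.1% were higher after UV in psocs Δrad23, pRAD7 Δrad23, psocs and pRAD7, and in the values as deposited 34.5%, 29%, 50.5% and 46.2%. At 60 min the share that was higher was 47.6% in psocs and 44.3% in pRAD7, against 59.3% and 60.3% as deposited, and between 15 and 60 min it was 40.9% and 36.3%, against 64.5% and 69.2%. The median change of all genes at 60 min in pRAD7 was -0.11 as centred and 0.16 as deposited. *HTB1* and *HTB2* at both times, and *HTZ1* at 60 min in psocs and pRAD7, were lower than untreated under centring, under quantile normalization and as deposited.

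**Figure D3:**
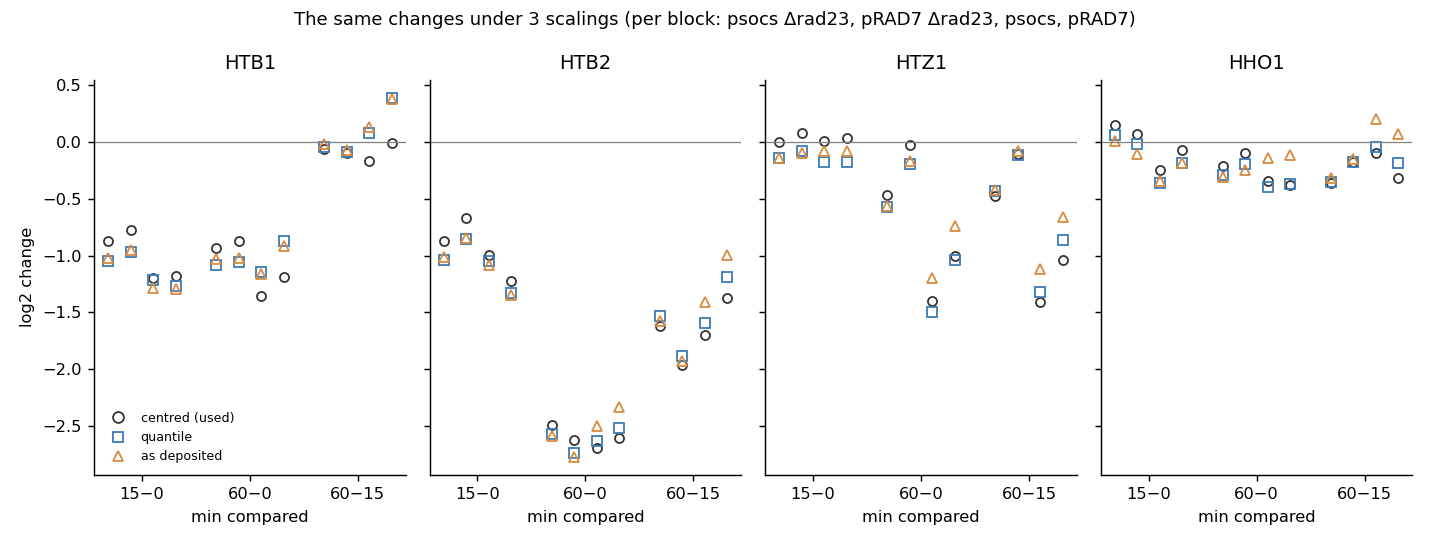
Log2 changes of the 4 histone genes (vertical axis) for 15 min minus untreated, 60 min minus untreated and 60 min minus 15 min, each for 4 strains from left to right, under centring, quantile normalization and the values as deposited. The symbols of HTB2 stay below 0 throughout, while HTB1 in pRAD7 between 15 and 60 min lies at -0.00, 0.39 and 0.38.

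**Figure D4:**
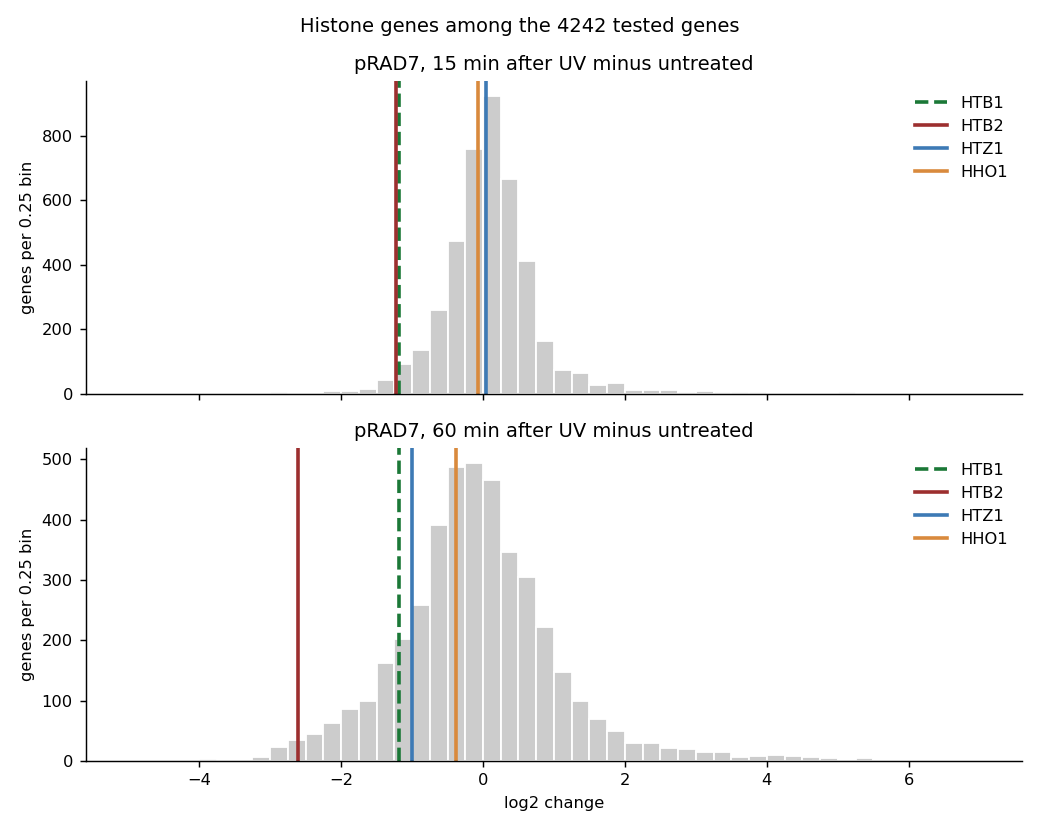
Histogram of the log2 change of all 4242 tested genes in pRAD7 at 15 min and 60 min after UV (genes per bin of 0.25), with a vertical line for each histone gene. At 15 min HTB1 and HTB2 lie together in the lower tail at -1.18 and -1.23. At 60 min HTB2 lies apart from the others at -2.60.

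The next question was whether the psocs plasmid or the loss of *RAD23* changed the histone transcripts before irradiation. None of 20 differences between untreated strains was called, and none had an unadjusted p under 0.05 in limma. Of all genes, 1.04% were called between psocs Δrad23 and psocs, 1.20% between pRAD7 Δrad23 and pRAD7, 0.0943% between psocs Δrad23 and pRAD7 Δrad23, 0.519% between psocs Δrad23 and pRAD7, and 0.0236% between psocs and pRAD7. With 1 array left out the first count of 44 genes ran from 4, without untreated replicate 1 of psocs Δrad23, to 54. The second of 51 genes ran from 10, without untreated replicate 1 of pRAD7 Δrad23, to 133, without its replicate 2. In the same order of pairs, 565, 693, 158, 532 and 61 of all 4242 genes had an unadjusted p under 0.05 in limma. *HTB1* averaged 2961 ± 105 in untreated psocs Δrad23 (SD, n = 2) and 3595 ± 136 in untreated psocs (SD, n = 3), a difference of -0.28 ± 0.15 (95% interval -0.59 to 0.03, adjusted p = 0.416). *HTZ1* averaged 729.97 ± 71.8 in untreated pRAD7 Δrad23 (SD, n = 2) and 961 ± 99.7 in untreated pRAD7 (SD, n = 3), a difference of -0.40 ± 0.28 (95% interval -0.98 to 0.19, adjusted p = 0.525). All untreated *HTZ1* values of both Δrad23 strains lay below all those of psocs and pRAD7. No share of all genes was computed for this pooled separation. Counted by pairs of strains, 4 of the 20 differences were lower without overlap, those of *HTZ1* and that of *HTB1* between psocs Δrad23 and psocs. Of all genes, 12.7% were lower without overlap in psocs Δrad23 than in psocs, 9.38% in pRAD7 Δrad23 than in pRAD7, and 10.6% in psocs Δrad23 than in pRAD7. Between psocs and pRAD7 the 4 differences ran from -0.05 to 0.09, and the widest 95% interval, of *HTZ1*, from -0.57 to 0.48.

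The UV responses were then compared between strains, each difference being the change in one strain minus that in the other. None of the 40 was called and 2 had an unadjusted p under 0.05 in limma, both of *HTZ1* at 60 min. Such a p was common at 60 min in these 2 pairs of strains. Of all 4242 genes, 1755 had it between pRAD7 Δrad23 and pRAD7 and 1034 between psocs Δrad23 and psocs. The fall of *HTZ1* was smaller in pRAD7 Δrad23 than in pRAD7 by 0.99 ± 0.40 (95% interval 0.16 to 1.81, adjusted p = 0.0641), and smaller in psocs Δrad23 than in psocs by 0.93 ± 0.40 (95% interval 0.10 to 1.75, adjusted p = 0.151). Between psocs Δrad23 and pRAD7 it differed by 0.54 ± 0.40 (adjusted p = 0.443), between psocs Δrad23 and pRAD7 Δrad23 by -0.45 ± 0.44 (adjusted p = 0.744), and between psocs and pRAD7 by -0.39 ± 0.36 (adjusted p = 1). The first of these differences was called under some settings, with an adjusted p of 0.00679 when only the arrays of the groups compared were used, 0.0239 without 60 min replicate 1 of psocs and 0.0425 without its replicate 3, and 0.0373 without either 15 min array of pRAD7 Δrad23. It was 0.85 with quantile normalization (adjusted p = 0.128) and 0.57 as deposited (adjusted p = 0.329). Over its alternatives the adjusted p ran from 0.00679 to 0.329. The difference between psocs Δrad23 and psocs was 0.56 without 60 min replicate 1 of psocs (adjusted p = 0.335), 1.21 without its replicate 3 (adjusted p = 0.0525) and 0.63 as deposited (adjusted p = 0.351), and no alternative called it.

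For all genes, the 60 min response was called different for 9.38% between psocs Δrad23 and psocs, 30.0% between pRAD7 Δrad23 and pRAD7, 0.236% between psocs Δrad23 and pRAD7 Δrad23, and 11.3% between psocs Δrad23 and pRAD7. Between psocs and pRAD7 no gene was called at either time, with 35 genes at an unadjusted p under 0.05 at 60 min. No gene was called in any of the 5 comparisons at 15 min, where 37 to 221 had such a p. This absence of 15 min calls depended on the settings. Some alternatives called genes between pRAD7 Δrad23 and pRAD7, between psocs Δrad23 and psocs, and between psocs Δrad23 and pRAD7. Leaving out an array could also give a call between psocs Δrad23 and pRAD7 Δrad23. For the H2B genes the 60 min differences were within 0.42 of 0 in every pair. *HTB2* differed by 0.21 ± 0.31 (95% interval -0.43 to 0.84) between psocs Δrad23 and psocs, by -0.02 ± 0.31 (95% interval -0.66 to 0.62) between pRAD7 Δrad23 and pRAD7, and by -0.09 ± 0.27 (95% interval -0.66 to 0.48) between psocs and pRAD7. *HTB1* differed by 0.42 ± 0.21 (95% interval -0.02 to 0.86) between psocs Δrad23 and psocs and by 0.31 ± 0.21 (95% interval -0.13 to 0.75) between pRAD7 Δrad23 and pRAD7. The sign of the last one depended on the scaling, with -0.18 under quantile normalization and -0.11 as deposited, and the other was 0.055 and 0.13. No estimate was called.

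**Figure D5:**
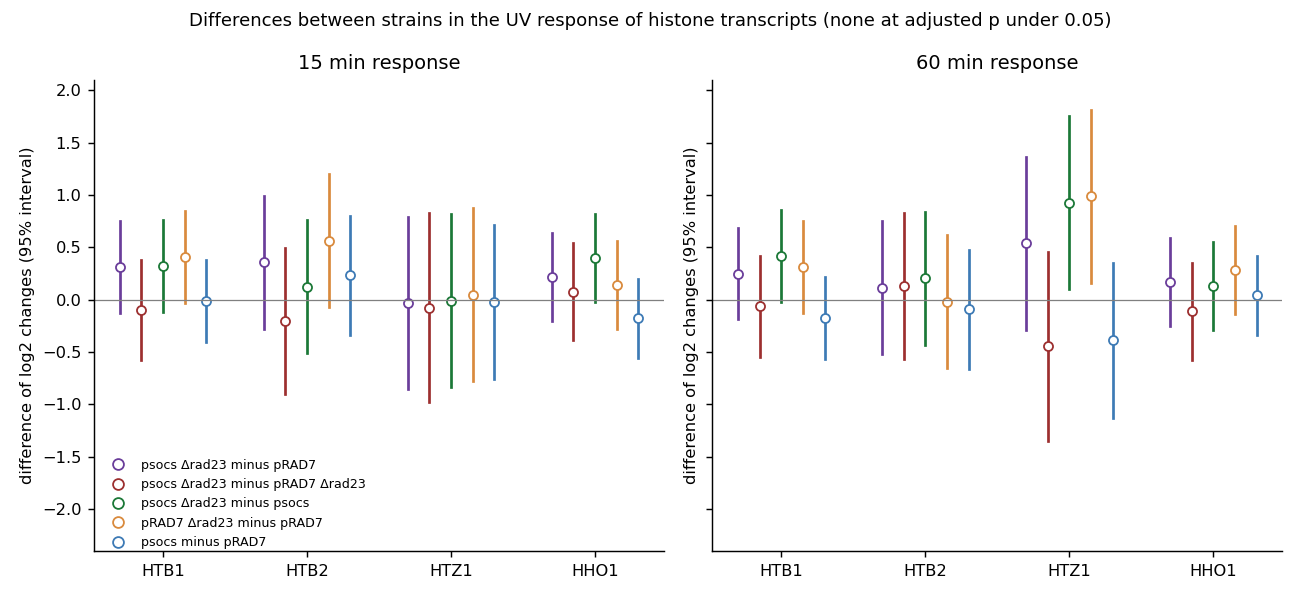
Difference between strains in the log2 change after UV (points, with 95% intervals) for each histone gene, at 15 min and at 60 min, for 5 pairs of strains. No point is called. Of the intervals, 2 lie wholly above 0, both HTZ1 at 60 min: 0.16 to 1.81 for pRAD7 Δrad23 minus pRAD7 and 0.10 to 1.75 for psocs Δrad23 minus psocs. In these 2 comparisons 1755 and 1034 of all 4242 genes had an unadjusted p under 0.05 in limma.

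The levels put the 12 groups in a different order for each gene. For *HTB1* the 4 untreated groups came first and psocs at 60 min last, and below the untreated groups the only neighbours that did not overlap were pRAD7 Δrad23 at 15 min and pRAD7 Δrad23 at 60 min. For *HTB2* the order followed time. For *HTZ1* pRAD7 at 15 min came first, and the lowest 3 means were those at 60 min in psocs Δrad23, pRAD7 and psocs. The next group up, pRAD7 Δrad23 at 60 min, overlapped none of the arrays of psocs Δrad23 at that time. For *HHO1* all neighbours overlapped. Over the 12 group means of log2 signal, Pearson's r was 0.81 between *HTB1* and *HTB2*, 0.81 between *HTB2* and *HHO1*, 0.74 between *HTZ1* and *HHO1*, 0.73 between *HTB2* and *HTZ1*, 0.58 between *HTB1* and *HHO1* and 0.47 between *HTB1* and *HTZ1*. The points share arrays and a common time course.

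Among all tested genes, those whose group means ran most like *HTB1* were *VTS1*, an RNA-binding protein gene, *DBP7*, an RNA helicase of ribosome synthesis, and *AIM20* (r = 0.99, 0.98 and 0.98 over 12 groups). Most like *HTB2* were *BUD8*, which marks bud sites at the distal pole, *SGD1*, a nuclear protein gene of ribosome synthesis, and *CCH1*, a calcium channel gene, each at r = 0.99. *HTZ1* ran most like *SPT15*, the gene of the TATA-binding protein, *HTS1*, a histidyl-tRNA synthetase gene, and *YMC1*, a mitochondrial carrier gene, each at r = 0.96. *HHO1* ran most like *RPC40*, a subunit shared by RNA polymerases I and III, *ECT1* of phospholipid synthesis, and *MYG1*, each at r = 0.91. Likeness in r leaves the size free: at 60 min in pRAD7 *RPC40* changed by -1.82 and *ECT1* by -0.39, against -0.38 for *HHO1*.

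The other genes that act on histones were taken from lists by function. Of 7 further core and centromeric histone genes none was tested. The H2A, H3 and H4 genes had no probe set named for 1 of them alone, and *CSE4* was dim. For the lists that follow, 23.2% of all genes were called higher and 14.2% lower at 15 min in pRAD7. At 60 min 31.2% were called higher in psocs Δrad23, 32.6% in pRAD7 Δrad23, 30.8% in psocs and 28.7% in pRAD7, beside the shares called lower given above. Of 11 tested transcription regulators of histone genes (16 listed), 0 rose and 2 fell at 15 min in pRAD7, and 1 rose and 5 fell at 60 min. Their median changes were -0.29 and -0.21, against 0.08 and -0.11 for all genes. *RSC2*, a subunit of a chromatin remodelling complex, changed by -1.15 at 15 min and by -1.88 ± 0.20 at 60 min (adjusted p = 3.24e-08). *HIR3*, of the HIR complex, which represses the other histone gene pairs but not *HTA2*-*HTB2*, changed by -1.28 ± 0.16 at 60 min (adjusted p = 2.78e-07), and *ASF1*, a chaperone that works with it, by 1.23 ± 0.20 (adjusted p = 1.17e-05). At 60 min 1 rose and 7 fell in psocs Δrad23, 1 rose and 8 fell in pRAD7 Δrad23, and 1 rose and 5 fell in psocs, with median changes of -0.93, -1.22 and -0.30.

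Of 12 histone chaperone and assembly genes, 2 rose and 2 fell in pRAD7 at each time. *RLF2*, the large subunit of chromatin assembly factor 1, and *MSI1*, its small subunit, changed by -0.86 ± 0.18 (adjusted p = 0.000764) and -0.68 ± 0.17 (adjusted p = 0.00262) at 15 min, and had 0.04 and -0.07 at 60 min, which were not called. *SPT6*, which acts on nucleosomes during elongation, changed by -1.01 ± 0.22 at 60 min (adjusted p = 0.000389).

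Of 11 tested genes of the SWR1 complex, which deposits H2A.Z, 0 rose and 3 fell at 15 min in pRAD7, and 1 rose and 2 fell at 60 min. *SWR1* itself changed by -1.14 ± 0.41 at 15 min (adjusted p = 0.0335) and had -0.06 at 60 min, *SWC5* changed by 0.98 ± 0.15 at 60 min (adjusted p = 5.03e-06), and *RVB1* by -0.61 ± 0.14 (adjusted p = 0.000699). Of 11 genes of the INO80 remodelling complex, 2 rose and 1 fell at 15 min, and 2 rose and 3 fell at 60 min. The complex's ATPase gene *INO80* changed by -0.40 and -0.43 and *IES5* by 0.62 and 0.68 at the 2 times, all called, and *IES3* by -0.43 at 60 min (adjusted p = 0.0285). At 60 min, when *HTZ1* was lower, the median change was -0.02 in both lists, against -0.11 for all genes.

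Of 10 tested genes for ubiquitination of H2B and its removal, 1 rose and 3 fell at 15 min in pRAD7, and 0 rose and 3 fell at 60 min. *BRE1*, the ubiquitin ligase of H2B, changed by -0.57 ± 0.13 at 15 min and -0.75 ± 0.13 at 60 min (adjusted p = 2.24e-05), the deubiquitinase gene *UBP10* by -0.51 and -0.95 ± 0.13 (adjusted p = 1.54e-06), and *SGF11* by 0.63 ± 0.14 at 15 min (adjusted p = 0.00133). Of 8 tested genes for the decay of histone mRNA and the degradation of histone protein, 2 rose and 0 fell at 15 min, and 3 rose and 2 fell at 60 min. *RRP6*, an exonuclease of the nuclear exosome, changed by -2.02 ± 0.22 at 60 min (adjusted p = 4.04e-08), *UBC5*, a ubiquitin-conjugating enzyme gene, by 1.47 ± 0.21 (adjusted p = 1.53e-06), and *DHH1*, a decapping activator, by 1.03 ± 0.33 (adjusted p = 0.00864).

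Of 15 tested genes of S phase and its onset, 0 rose and 4 fell at 15 min in pRAD7, and 4 rose and 4 fell at 60 min. The G1 cyclin gene *CLN1* changed by -1.07 ± 0.23 and -1.43 ± 0.23 (adjusted p = 9.21e-06 at 60 min) and *CLN2* by -0.60 and -1.25 ± 0.18 (adjusted p = 1.48e-06), while *PRI2*, the large primase subunit, changed by 1.18 ± 0.18 at 60 min (adjusted p = 6.15e-06). Of all genes, 28.7% were called higher and 36.1% lower at 60 min in pRAD7, so calls in both directions were not particular to this list. The median of the S phase list was -0.13 at 15 min and -0.02 at 60 min, against 0.08 and -0.11 for all genes. At 60 min 3 rose and 7 fell in psocs Δrad23, 2 rose and 7 fell in pRAD7 Δrad23, and 3 rose and 4 fell in psocs.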

How the data were processed

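RNA of 30 samples was read on Affymetrix Yeast S98 arrays. The authors deposited MAS 5.0 signal intensities on a linear scale, each array scaled to one trimmed mean (500.3 to 500.5 here). Aligners and genome builds play no part. Of 9335 probe sets, 60 were controls, 6504 (70.1%) had 1 gene name, 328 several and 2443 none. With 1 probe set per gene (highest mean), 5656 genes were left.

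Signals under the 10th percentile (8.50) were set to it, log2 was taken, and each array was centred on the common median. The array medians ranged from 6.81 to 7.28, and the shifts from -0.33 to 0.13. Dim genes, whose mean fell below the 25th percentile (log2 6.53), were dropped, leaving 4242. The 12 group means were fitted to all 30 arrays with limma 3.58.1 (R 4.3.3, trended eBayes), and 27 comparisons were adjusted by Benjamini-Hochberg within each, with a threshold of 0.05. The fit was tested on simulated data. An array gives no count depth, so the number of arrays limits the precision. Gene names and neighbours came from the RefSeq R64 table. No identical arrays were found.

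The 4 genes, the gene lists and the tests were chosen with earlier results of these data known. The text names the 4 genes, the 3 genes most like each over the 12 group means, and up to 3 called genes per list with the largest change in pRAD7. Alternatives were quantile normalization, no centring, no floor, keeping dim genes, a stricter filter (50th percentile), fitting the compared groups alone, blocking on the replicate number, all probe sets kept apart and each array left out in turn. Added after seeing the data were fits without either pair of Δrad23 arrays at 15 min that differed in stress genes, and a block with crossed numbers. Plots were made in Python 3.11.15 with matplotlib 3.10.9.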

Additional observations from a re-analysis of the deposited data

How the results depend on the processing

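The 15 min count of histone changes called was 7, and it was 4 when only the groups compared entered the fit (*HTB1* in both Δrad23 strains and *HTB2* in psocs Δrad23 were lost) and 9 with quantile normalization and as deposited (*HTB2* in pRAD7 Δrad23 and *HHO1* in psocs were gained). The count of response differences called was 0, and it was 1, *HTZ1* at 60 min between pRAD7 Δrad23 and pRAD7, when only the groups compared were fitted, without the 2 Δrad23 arrays at 15 min of low stress genes, without the 2 of high stress genes, and with the block of crossed numbers. With each array left out in turn the counts ran from 6 to 8 at 15 min, 11 to 12 at 60 min, 6 to 8 between the times, 0 to 0 between untreated strains and 0 to 1 for response differences. The 60 min count was 10 as deposited. Values with a call under at least 1 of the settings that changed sign were *HTB1* from 15 to 60 min in pRAD7, 0.39 with quantile normalization and 0.38 as deposited, and *HHO1* in the same comparison, 0.074 as deposited. Taken from the median change of all genes, the values were 0.12 for *HTB1* and -0.18 for *HHO1*. These are the same as centred and as deposited by construction, as centring shifts all genes of an array equally. The cause of the change of *HTB1* with quantile normalization was not tested. Another 115 changes of sign, over all settings, were of values with no call, up to 0.31 in size. *HHO1* in pRAD7 from 15 to 60 min also lost its call with quantile normalization (-0.18, adjusted p = 0.235), with only the groups compared, with all probe sets kept apart, and without single arrays, among them any 15 min array of pRAD7 and its 60 min replicates 1 and 2 (adjusted p up to 0.167). The *HTZ1* decline from 15 to 60 min in psocs Δrad23 was called without the 2 arrays of high stress genes (-0.85, adjusted p = 0.0304).

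The same replicate numbers occur in all strains and times. Of 18 pairs of same-numbered samples in pRAD7 and psocs, 10 had deviations correlated over 0.1 (range -0.10 to 0.51). In psocs at 60 min and untreated all 3 pairs were over 0.1 (0.18 to 0.51). Not every sample there correlated best with its own number, however. Pairs with different numbers in pRAD7 and psocs ran from -0.51 to 0.35, and a smaller share of them was over 0.1. Nothing in the labels ties a number to a shared culture or day, and the samples were not treated as paired. With the replicate number as a block the counts were 7, 12, 7, 0 and 0, and no call of a histone gene changed. With crossed numbers they were 8, 12, 7, 0 and 1.

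Over all genes, the 15 min calls were 626 in pRAD7 Δrad23 and 716 in psocs Δrad23, against 11 and 67 with only the groups compared, and 268 to 673 and 138 to 912 with 1 array left out. With all probe sets kept apart, unnamed ones included, the 60 min calls in pRAD7 were 4211, against 2749. The first count is of probe sets and the second is out of the 4242 tested genes. The totals differ, and the counts alone do not compare the shares called. Depth cannot be given for arrays. With 2 arrays per group, the standard errors of changes in the Δrad23 strains ran up to 0.31, for *HTZ1*.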
